A study of Sus scrofa with 207 samples.

Results

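The transcripts described here encode subunits of complexes II to V of the respiratory chain, measured in the muscle of 207 slaughter pigs. A gene was taken if a probe set of the array carried only its symbol and the symbol was SDHA, SDHB, SDHC, SDHD or CYC1 or began with UQCR, COX4, COX5, COX6, COX7, COX8 or ATP5. Each gene was represented by its probe set with the highest mean over the 207 arrays. The rule found 27 genes of the 6765 with a symbol of their own, through 35 of 23935 probe sets. Of these genes, 4 belong to complex II (SDHA, SDHB, SDHC and SDHD) and 2 to complex III (UQCR10 and UQCRB). Complex IV was represented by 7 genes (COX5B, COX6A1, COX6C, COX7A1, COX7A2, COX7C and COX8H). The other 14 belong to complex V (ATP5A1, ATP5B, ATP5D, ATP5E, ATP5F1, ATP5G1, ATP5G2, ATP5G3, ATP5H, ATP5I, ATP5J, ATP5L, ATP5O and ATP5S). No probe set with CYC1 as its only symbol was found, and 2 probe sets that share such a gene with another symbol were left out.

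The animals were commercial pigs of the cross labelled Pix(DLxDE), slaughtered at a mean end weight of 110 kg, and they form 1 group with no treatment and no control. The labels give no sex, sire, age, slaughter day or hybridisation batch, and they call the sampled tissue muscle without naming which one. Each of the 207 pigs was hybridised to 1 Affymetrix Porcine Genome Array and carries a drip loss label, with a mean of 5.37% ± 2.22 (SD) and a range of 1.45% to 10.82%. Drip loss is the share of its weight that a slice of longissimus muscle loses while it hangs in a bag in the cold, a measure of how poorly meat holds water. Fat area over the same muscle was labelled for all but 8 pigs, with a mean of 15.0 cm2 ± 3.15 (SD) and a range of 8.1 to 26.7 cm2.

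Complex II (succinate dehydrogenase) and complex I feed electrons from the citric acid cycle and from NADH to ubiquinone. Complex III passes them on to cytochrome c, and complex IV (cytochrome c oxidase) hands them to oxygen. Complex V (ATP synthase) lets the protons pumped by the chain flow back and makes ATP from their passage, and in muscle the whole system is richest in oxidative fibres, which hold more mitochondria than glycolytic fibres do.

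Values are on the log2 scale, so a difference of 1 is a doubling of signal. Array medians lay between 5.96 and 6.18, and skeletal muscle markers were high on every array (CKM, muscle creatine kinase, ran from 14.0 to 14.22). Of the arrays, 24 resembled the rest less than usual, with median correlations to them as low as 0.944 where 0.978 was typical. Mean drip loss was 4.20% ± 1.55 (SD) in the pigs behind these 24 low-correlation arrays and 5.53% ± 2.25 (SD) in all others, so results are also given without them. Albumin, a liver transcript, reached 10 or more on 27 arrays with a maximum of 14.75, against a median of 5.75 over all arrays. The mean over the 27 genes was 11.88 ± 0.17 (SD, n = 27) on those arrays and 11.88 ± 0.15 (SD, n = 180) on the rest.

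Of the 27 transcripts, 25 had a mean of 10 or more, and their SD over pigs ran from 0.14 (ATP5G2) to 0.31 (COX7A1). ATP5S, known as coupling factor B, was the dimmest, from 6.92 through a median of 7.63 to 8.39. None was at the lower limit of the scale on any array. SDHA, the catalytic flavoprotein of complex II, had a lowest value of 10.71, a median of 11.65 and a highest value of 12.17. ATP5B, the catalytic beta subunit of complex V, ran from 12.41 through a median of 13.27 to 13.60. COX6A1, an isoform of a complex IV subunit that is not restricted to muscle, spread more widely, from 8.58 through 9.40 to 10.66. The mean over all 27 genes ran from 11.37 on the lowest array through a median of 11.91 to 12.19 on the highest. Because the samples are bulk tissue, fewer cells or fibres of a kind and less RNA per cell cannot be told apart in any of these values.

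**Figure D1:**
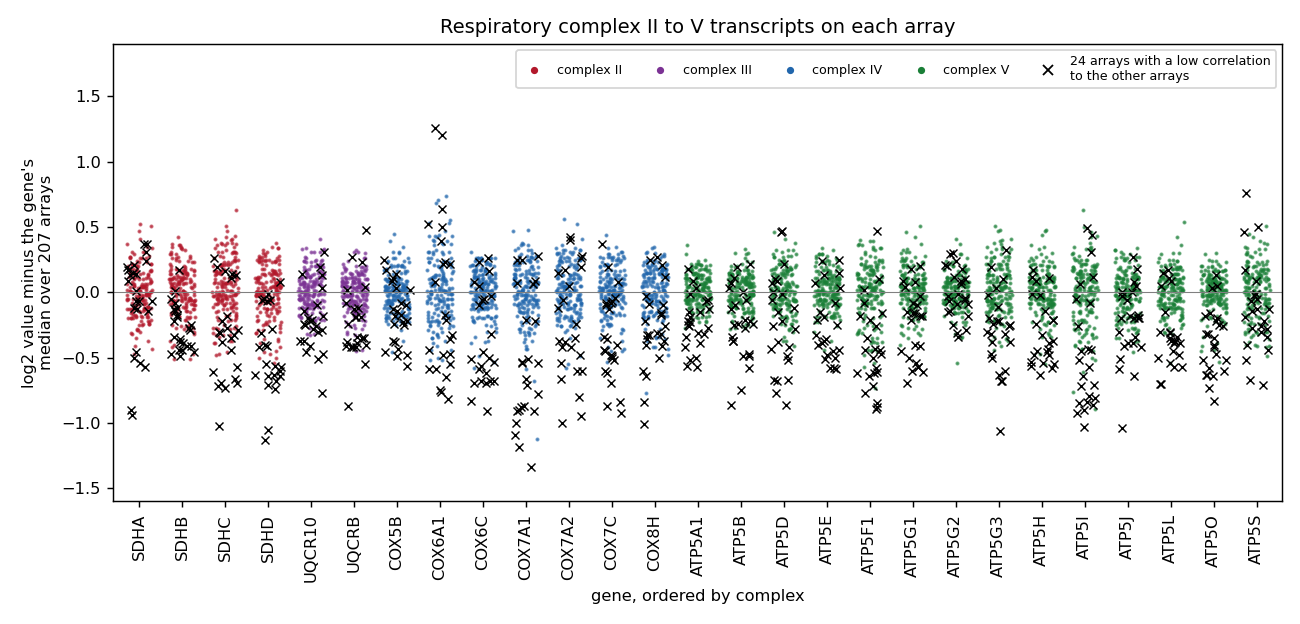
Log2 value of each gene on each of 207 arrays, with the gene's own median subtracted (vertical axis), for the 27 genes in order of complex (horizontal axis). Points are arrays coloured by complex and crosses are the 24 arrays with a low correlation to the others, which lie below the rest on average for every gene, most of all for COX7A1.

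On the 24 low-correlation arrays all 27 genes had a lower mean than on the others. The mean over the genes was 11.63 ± 0.19 (SD, n = 24) there and 11.92 ± 0.12 (SD) elsewhere, and 18 of the 24 lowest arrays by this mean were low-correlation arrays. COX7A1, the heart and muscle isoform of a small complex IV subunit, differed most, at -0.54. SDHD, one of the membrane anchors of complex II, differed by -0.47, and ATP5I, subunit e of complex V, by -0.43. ATP5G2, one of the genes for the ring-forming subunit c, was the least different at -0.022. The drop was not particular to the 27 genes, as complex I subunits averaged 11.04 ± 0.20 (SD) on these arrays and 11.30 ± 0.11 (SD) elsewhere. Skeletal muscle markers averaged 13.47 ± 0.10 (SD) and 13.46 ± 0.07 (SD). Over all arrays CKM (14.0 to 14.22), TNNT3 (13.84 to 14.10), TNNC2 (13.58 to 13.90) and MYLPF (13.68 to 14.15) spanned little, so they had little room to show a change. MYBPC1 (11.52 to 12.98) and DES (12.22 to 13.36) spanned more. The signal of EF1A at its 3' end exceeded that at its 5' end by 1.5 ± 0.79 on the low-correlation arrays and by 1.25 ± 0.40 on the others. The actin difference was 3.0 ± 0.53 against 2.84 ± 0.45. The part of array quality in the levels of these genes was not tested.

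The first comparison asked how each transcript relates to drip loss across pigs. Of the 27 transcripts, 9 were higher in pigs with a higher drip loss and 0 were lower: SDHB and SDHD of complex II, COX6C, COX7A1, COX7A2 and COX7C of complex IV, and ATP5H, ATP5I and ATP5L of complex V. All 27 slopes were positive. The changes were small, between 3.06% (SDHB) and 7.16% (ATP5I) more signal per SD of drip loss among these 9. Slopes were fitted with limma over all 23935 probe sets and adjusted by Benjamini-Hochberg, with 0.05 as the threshold for a two-sided adjusted p.

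Over all probe sets 1.94% passed in the higher and 2.67% in the lower direction. With 1 probe set per gene 3.96% of 6765 genes passed as higher, and among the 800 genes with a mean of 10 or more, to which 25 of the 27 belong, 9.88% did. The median slope of the 27 genes was 0.0414 log2 units per SD of drip loss. The median was 0.0023 over all probe sets and 0.0136 over the genes with a mean of 10 or more, 68% of which had a positive slope. At an unadjusted p under 0.05, 18 of the 27 genes were higher and 0 were lower. Such a p was also common elsewhere, with 4624 of 23935 probe sets under it in either direction. In a fit over the 6765 genes alone 1614 had one.

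ATP5I gave the smallest p. Its product, subunit e, sits in the membrane part of ATP synthase, where it takes part in joining 2 synthase units. Over the 207 pigs its lowest value was 9.12, its median 10.15 and its highest 10.78. In the 52 pigs with a drip loss of 3.59% or less, called low-drip pigs here, it ran from 9.12 through a median of 10.10 to 10.57. In the 52 pigs with 7.2% or more, called high-drip pigs, it ran from 9.65 through 10.25 to 10.78. These sets overlapped over most of their range, with the lowest values in low-drip pigs, and 71.2% of the high-drip pigs lay above the median of the low-drip pigs. The slope was 0.0997 ± 0.0197 (SE, n = 207) log2 units per SD, with an adjusted p of 7.0e-04 in limma. Without the 24 low-correlation arrays it was 0.0679 ± 0.0163 (SE, adjusted p = 0.0142 in limma). The sample titles carry running numbers, and with blocks of 100 of these title numbers entered as a covariate it was 0.0811 ± 0.0198 (SE, adjusted p = 0.0206 in limma).

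ATP5L encodes subunit g, which lies beside subunit e in the membrane. Its values ran from 11.66 through a median of 12.32 to 12.78 in low-drip pigs and from 12.06 through 12.41 to 12.90 in high-drip pigs. The ranges overlapped, and 75% of the high-drip pigs lay above the median of the low-drip pigs. Its slope was 0.0541 ± 0.0133 (SE, n = 207, adjusted p = 0.0085 in limma).

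ATP5H encodes subunit d of the peripheral stalk, the arm that keeps the catalytic head of ATP synthase from turning with the rotor. It ran from 11.77 through 12.30 to 12.68 in low-drip pigs and from 12.01 through 12.42 to 12.82 in high-drip pigs. Of the high-drip pigs, 82.7% lay above the median of the low-drip pigs, the greatest such share among the 27 genes, and the ranges still overlapped. The slope was 0.0570 ± 0.0136 (SE, n = 207, adjusted p = 0.0070 in limma).

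In complex IV the transcripts that rose encode small nuclear-encoded subunits around the catalytic core. COX7A2, the isoform of subunit 7a found in most tissues, ran from 9.48 through a median of 10.46 to 10.77 in low-drip pigs and from 10.22 through 10.56 to 11.04 in high-drip pigs. The ranges overlapped, with the lowest values in low-drip pigs. Its slope was 0.0674 ± 0.0166 (SE, n = 207, adjusted p = 0.0084 in limma). COX6C ran from 12.03 through 12.90 to 13.19 in low-drip pigs and from 12.55 through 13.01 to 13.25 in high-drip pigs. The overlap was again broad, with 73.1% of the high-drip pigs above the median of the low-drip pigs, and the slope was 0.0556 ± 0.0157 (SE, n = 207, adjusted p = 0.022 in limma).

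COX7C had a median of 12.80 in low-drip pigs (11.91 to 13.14) and 12.89 in high-drip pigs (12.33 to 13.27). The ranges overlapped, and the slope was 0.0511 ± 0.0159 (SE, n = 207, adjusted p = 0.0397 in limma). COX7A1, the muscle counterpart of COX7A2, had a median of 12.33 in low-drip pigs (10.97 to 12.68) and 12.38 in high-drip pigs (11.78 to 12.79). Here the medians differed by only 0.055, while the values of the low-drip pigs reached much further down, and the slope was 0.0663 ± 0.0213 (SE, n = 207, adjusted p = 0.0478 in limma). Without the low-correlation arrays the COX7A1 slope was 0.0257, with an interval that included 0.

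In complex II, SDHD had a median of 12.08 in low-drip pigs (10.96 to 12.40) and 12.14 in high-drip pigs (11.59 to 12.44). The ranges overlapped, and as for COX7A1 they differed more at their low ends than in their medians. Its slope was 0.0597 ± 0.0175 (SE, n = 207, adjusted p = 0.0276 in limma). SDHB, the iron-sulphur subunit that carries electrons from the flavoprotein to the membrane, had a median of 12.11 (11.74 to 12.57) in low-drip pigs and 12.23 (11.74 to 12.52) in high-drip pigs. Both ranges began at the same lowest value, and the slope was 0.0435 ± 0.0137 (SE, n = 207, adjusted p = 0.042 in limma).

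The other 18 genes did not pass. The closest was ATP5G1 (subunit c), with a slope of 0.0414 ± 0.0136 and an adjusted p of 0.054 in limma. Next came ATP5E (epsilon subunit of the rotor, adjusted p = 0.057 in limma) and ATP5G3 (subunit c, adjusted p = 0.065). COX8H, the muscle isoform of subunit 8, followed with an adjusted p of 0.070, and SDHC, the other membrane anchor of complex II, with 0.080. Neither gene of complex III passed. UQCR10, a small subunit, had a slope of 0.0309 ± 0.0125 (SE, n = 207, adjusted p = 0.134 in limma). UQCRB, a ubiquinone-binding subunit, had a slope of 0.0200 ± 0.0124 with a 95% interval of -0.0045 to 0.0445, so a slope as large as that of SDHB was not excluded by its interval.

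The largest p in complex II was that of SDHA, whose slope was 0.0235 ± 0.0151 (95% interval -0.0063 to 0.0533). COX6A1 had the largest p in complex IV, with 0.0245 ± 0.0212 (interval -0.0174 to 0.0663). ATP5A1, the alpha subunit of the catalytic head, had the largest p in complex V, with 0.0127 ± 0.0111 (interval -0.0092 to 0.0345). The intervals of SDHA and COX6A1 still held slopes of the size seen in SDHB, and that of ATP5A1 did not.

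Within ATP synthase the slopes were also grouped by the place of the subunit. The F1 part, taken as the catalytic head (ATP5A1 and ATP5B) with the rotor subunits ATP5D and ATP5E, had a median slope of 0.0251. In limma 0 of its 4 genes passed, 1 of them at an unadjusted p under 0.05. The 3 genes of subunit c had a median of 0.0414, and 0 of 3 passed in limma, 2 of them at an unadjusted p under 0.05. The peripheral stalk (ATP5F1, ATP5H, ATP5J and ATP5O) had a median of 0.0422 with 1 of 4 passing. For subunits e and g the median was 0.0769, and both passed. ATP5S had a slope of 0.0262 ± 0.0156. Without the low-correlation arrays the median of the F1 part was 0.0024 and that of subunits e and g 0.0494. The ranges of the F1 part (0.0127 to 0.0379), subunit c (0.0114 to 0.0459) and the stalk (0.0181 to 0.0570) overlapped. Of subunits e (ATP5I, 0.0997) and g (ATP5L, 0.0541), the latter lay within the range of the stalk. Differences between these places were not tested.

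**Figure D2:**
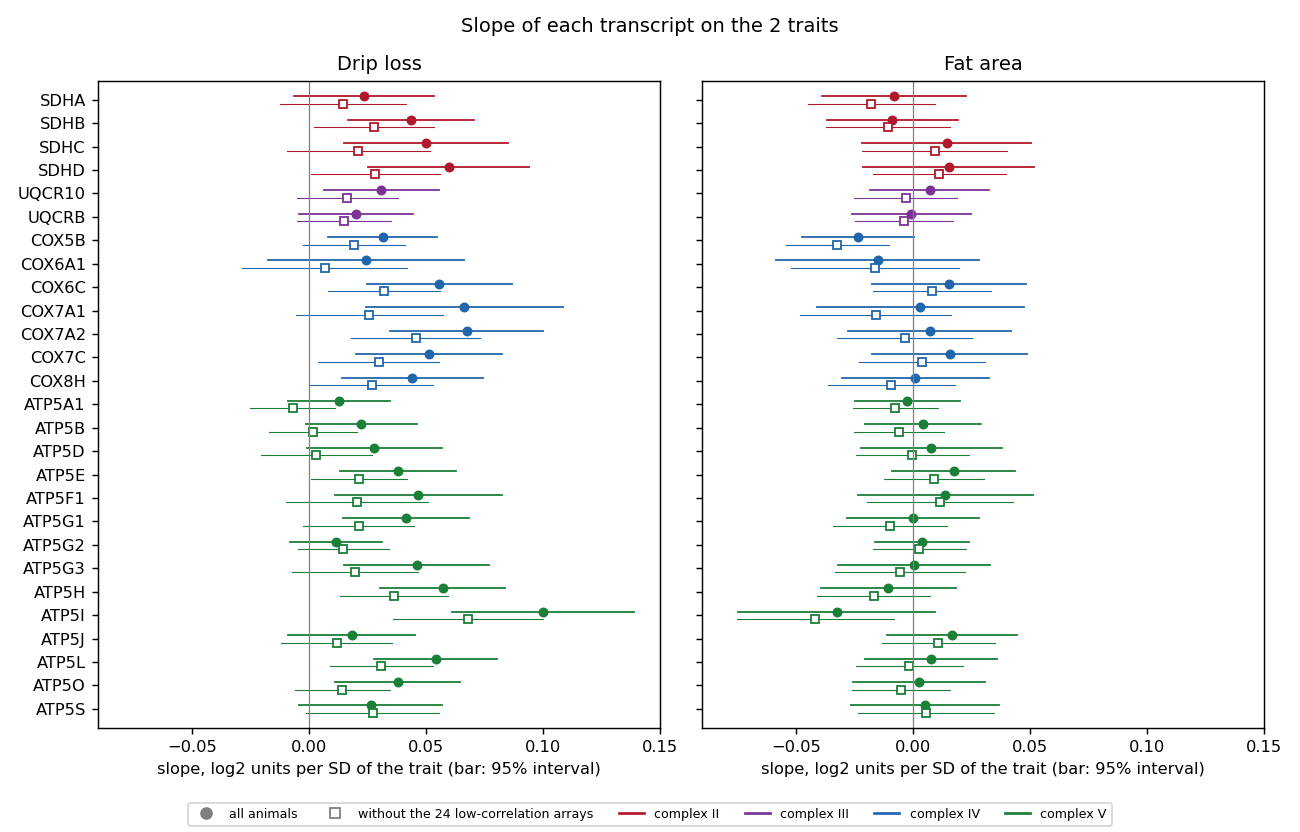
Slope of each of the 27 genes on drip loss (left) and on fat area (right), in log2 units per SD of the trait, with 95% intervals; filled circles use all animals, open squares leave out the 24 low-correlation arrays, and colours give the complex. All 27 filled circles lie right of 0 for drip loss, with ATP5I farthest, and those for fat area lie on both sides of 0.

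The calls depended on a few arrays and on the numbering of the pigs. Without the 24 low-correlation arrays 26 of 27 slopes stayed positive, but the median fell to 0.0211 and 1 gene, ATP5I, passed, beside 0.259% of all probe sets in the higher direction. With blocks of 100 title numbers as a covariate all 27 slopes were positive, the median was 0.0260, and again 1 gene, ATP5I, passed, beside 0.217% of all probe sets. With both settings at once 0 of 27 genes passed in limma, 2 at an unadjusted p under 0.05. Of all 23935 probe sets 22 passed as higher, and 2540 had an unadjusted p under 0.05 in either direction. ATP5I then had a slope of 0.0549 ± 0.0160 (SE, adjusted p = 0.103 in limma). What the title numbers stand for is not labelled.

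The second comparison set the same transcripts against fat area. None of the 27 genes passed, beside 0.121% of all probe sets in either direction. At an unadjusted p under 0.05 in limma 1692 of 23935 probe sets passed in either direction, and 0 of the 27 genes did. Of the slopes, 18 were positive, and their median was 0.0037 log2 units per SD of fat area, against -0.0018 over all probe sets. That balance of signs was not stable. Without the low-correlation arrays 9 of 27 slopes were positive with a median of -0.0040. A Y-linked component, the first component of the probe sets of EIF1AY and SRY, was also used as a covariate. With it 8 slopes were positive, with a median of -0.0050, and 0 of all probe sets passed for fat area in limma (1383 at an unadjusted p under 0.05). For drip loss 6 of the 27 genes passed with this covariate, beside 287 of all probe sets as higher. COX5B, a complex IV subunit on the matrix side, had the smallest p. In the 52 pigs with a fat area of 12.7 cm2 or less it had a median of 12.91 (12.43 to 13.34), and in the 50 pigs with 17.05 cm2 or more 12.85 (12.43 to 13.20). The ranges overlapped almost entirely, and the slope was -0.0235 ± 0.0122 (SE, adjusted p = 0.718 in limma).

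ATP5I had the smallest p in complex V, with a fat area slope of -0.0326 ± 0.0213 (95% interval -0.0747 to 0.0095). In complex II the smallest p was that of SDHD, at 0.0153 ± 0.0185 (interval -0.0213 to 0.0518), and in complex III that of UQCR10, at 0.0071 ± 0.0129 (interval -0.0184 to 0.0325). The interval of UQCR10 held a slope as large as its drip loss slope, and that of SDHD ended below it. Without the low-correlation arrays the slopes of COX5B and ATP5I were -0.0323 ± 0.0111 and -0.0417 ± 0.0171 (SE), with adjusted p of 0.429 and 0.597 in limma.

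A fit with both traits tested whether the drip loss slope differed from the fat area slope. The difference was positive for all 27 genes and passed for 1, ATP5I, beside 0.13% of all probe sets in that direction. For ATP5I it was 0.126 ± 0.0272 (SE, adjusted p = 0.0137 in limma) log2 units per SD. ATP5H came next with 0.0643 ± 0.0190 (adjusted p = 0.085 in limma). For ATP5I the difference was 0.106 ± 0.0222 without the low-correlation arrays (adjusted p = 0.0124 in limma) and 0.0910 ± 0.0269 with the title number blocks (adjusted p = 0.158 in limma).

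**Figure D3:**
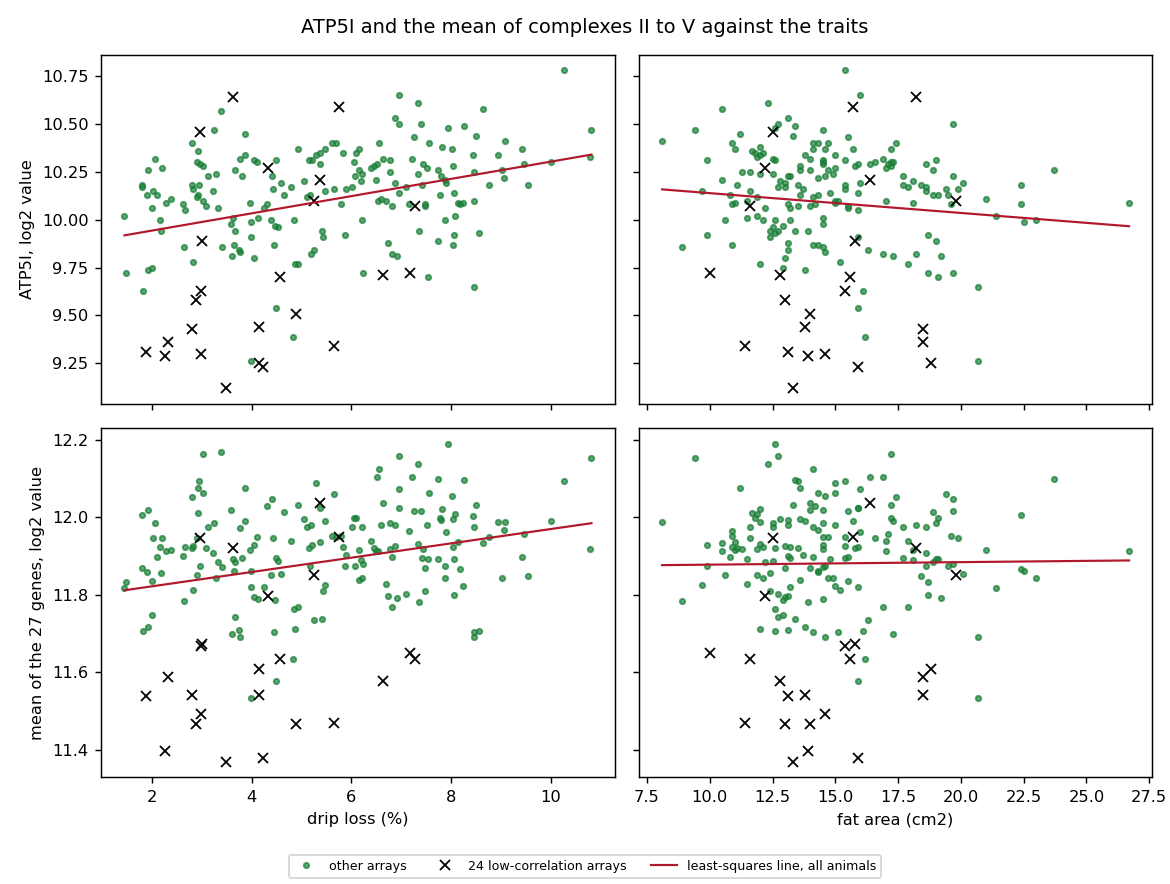
ATP5I (top, log2 value) and the mean of the 27 genes (bottom, log2 value) against drip loss in percent (left, n = 207) and fat area in cm2 (right, the pigs with that label), with 1 point per pig, crosses for the 24 low-correlation arrays and a least-squares line through all pigs. Points rise with drip loss in both rows, and most crosses lie low and toward low drip loss.

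The complexes were then compared as means over their genes, given here as descriptions with no p. The drip loss slope of the mean was 0.0486 ± 0.0131 (SE, n = 207) for complex IV, 0.0441 ± 0.0123 for complex II, 0.0385 ± 0.0102 for complex V and 0.0254 ± 0.0099 for complex III. Complexes II and IV differed by less than 1 SE (-0.0045 ± 0.0106 for II minus IV), and so did complexes II and V (0.0056 ± 0.0071 for II minus V). Complex III, represented by only 2 of its subunits, was lower by over 2 SE against complex IV (-0.0232 ± 0.0091 for III minus IV) and complex V (-0.0131 ± 0.0059 for III minus V). With the title number blocks the order turned at the top, with 0.0340 for complex II, 0.0302 for complex IV, 0.0258 for complex V and 0.0188 for complex III. The slopes lay closer together without the low-correlation arrays, at 0.0265 for complex IV, 0.0229 for complex II, 0.0202 for complex V and 0.0156 for complex III.

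For the mean over all 27 genes the slope was 0.0410 ± 0.0105, with Pearson's r of 0.263 and Spearman's rho of 0.243 against drip loss. Leaving out both pigs with the most extreme drip loss gave an r of 0.249. In the pigs of the lower title numbers r was 0.230, in the 33 pigs of the higher numbers 0.374, and within the blocks of 100 title numbers 0.183. Against fat area r was 0.0131.

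The 33 complex I subunits on the array gave a similar picture beside these. Their mean had a drip loss slope of 0.0433 ± 0.0101 (r = 0.288), all 33 single slopes were positive with a median of 0.0438, and 14 passed as higher and 0 as lower. As for the 27 genes most of these calls were lost, with 2 left without the low-correlation arrays and 1 under the title number blocks. The mean of complex I differed by less than 1 SE from those of complexes II and IV, by 0.0047 ± 0.0037 from that of complex V, and by 0.0178 ± 0.0064 from that of complex III.

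Across pigs the transcripts rose and fell together. The median Pearson r over the 351 pairs of the 27 genes was 0.538, and 331 pairs were positive, from -0.352 to 0.898. Over all pairs of genes on the array the median was 0.0059, and over pairs of genes with a mean of 10 or more it was 0.0659. These r values are descriptions over 207 arrays, and both genes of a pair were read from the same RNA on the same array with its scaling. Without the low-correlation arrays the median of the 27 genes was 0.465, and after quantile normalization 0.430.

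Membership of a complex made little difference to these correlations. The median r was 0.550 over pairs within a complex and 0.537 over pairs of different complexes. For 13 of the 27 genes the closest gene belonged to the same complex. Within complex IV the median was 0.621, within complex II 0.544 and within complex V 0.532, and the single pair of complex III, UQCR10 with UQCRB, had 0.309. COX6C of complex IV and ATP5E of complex V formed the closest pair (0.898), followed by ATP5H with ATP5L (0.894) and COX7A1 with ATP5H (0.888).

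**Figure D4:**
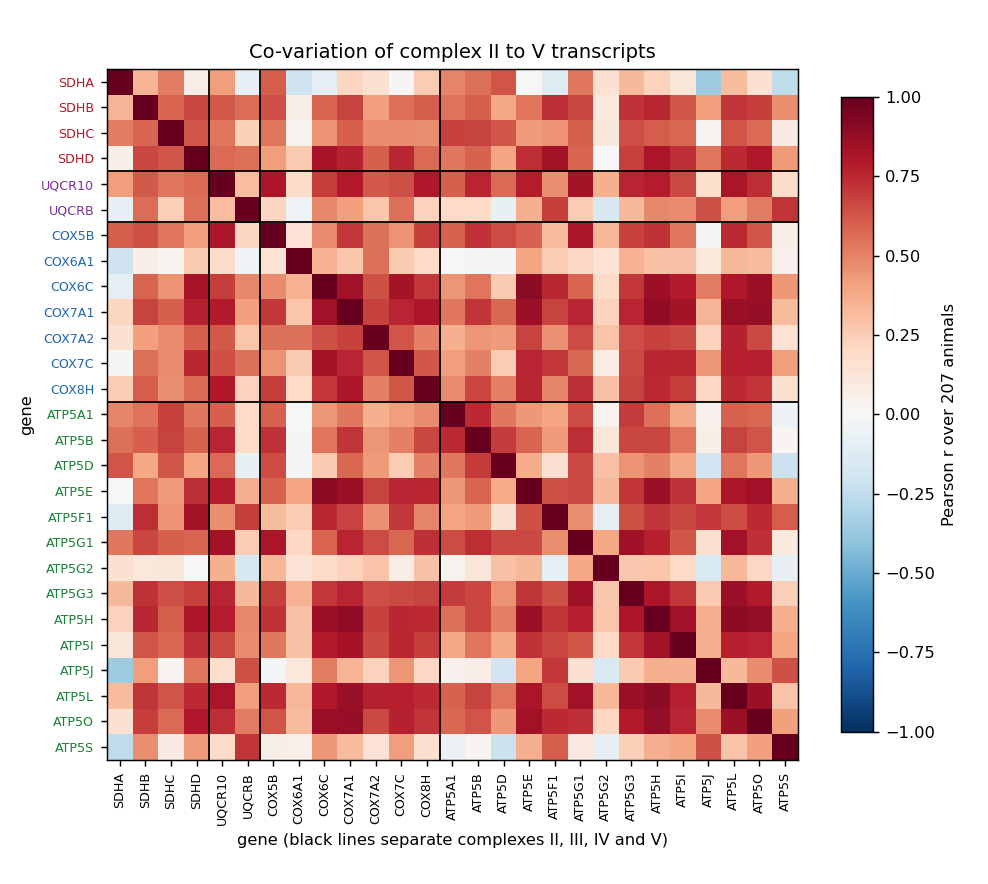
Pearson r over 207 animals for every pair of the 27 genes, ordered by complex on both axes, with black lines between complexes and colour from -1 (blue) to 1 (red). Red runs across the complex borders, and SDHA, UQCRB, COX6A1, ATP5G2, ATP5J and ATP5S stand out as paler rows.

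Some genes followed the rest closely and others barely. ATP5H had an r of 0.938 with the mean of the other 26 genes, ATP5L 0.937, COX7A1 0.918 and ATP5O, a stalk subunit that makes synthase sensitive to oligomycin, 0.912. At the other end were ATP5G2 with 0.221, SDHA with 0.234, COX6A1 with 0.262, ATP5S with 0.342, ATP5J (coupling factor 6 of the stalk) with 0.373 and UQCRB with 0.478. The lowest pair, SDHA with ATP5J, had an r of -0.352, and SDHA with ATP5S had -0.258. For ATP5D, the delta subunit of the rotor, r with ATP5S was -0.218.

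A principal component analysis of the 27 genes gave a division that matched this one only in part. The first component held 54.96% of their variance, with every gene loading in the same direction. The second held 14.2%, with SDHA (-0.39) and ATP5D (-0.32) at one end and ATP5J (0.38), ATP5S (0.36) and UQCRB (0.29) at the other. ATP5G2 (-0.17) and COX6A1 (0.089), which had followed the other genes poorly, were not at its ends. This second axis had an r of 0.740 with the first component of all probe sets, and 0.0189 with drip loss. After removal of a separately computed component, the first of the 6765 genes with 1 probe set each, SDHA and ATP5J had an r of 0.0969. The first axis had an r of 0.257 with drip loss and of 0.594 with an array's median correlation to the other arrays, whose part in it was not tested.

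The means of the complexes were tightly related. Complexes IV and V had an r of 0.903 over 207 pigs, III and V 0.835, II and V 0.828, III and IV 0.730, II and III 0.677 and II and IV 0.671. Complex I and complex V had 0.937. Without the low-correlation arrays these values were 0.884 for IV and V and 0.637 for II and IV. The mean of complex V is taken over 14 genes and that of complex III over 2.

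**Figure D5:**
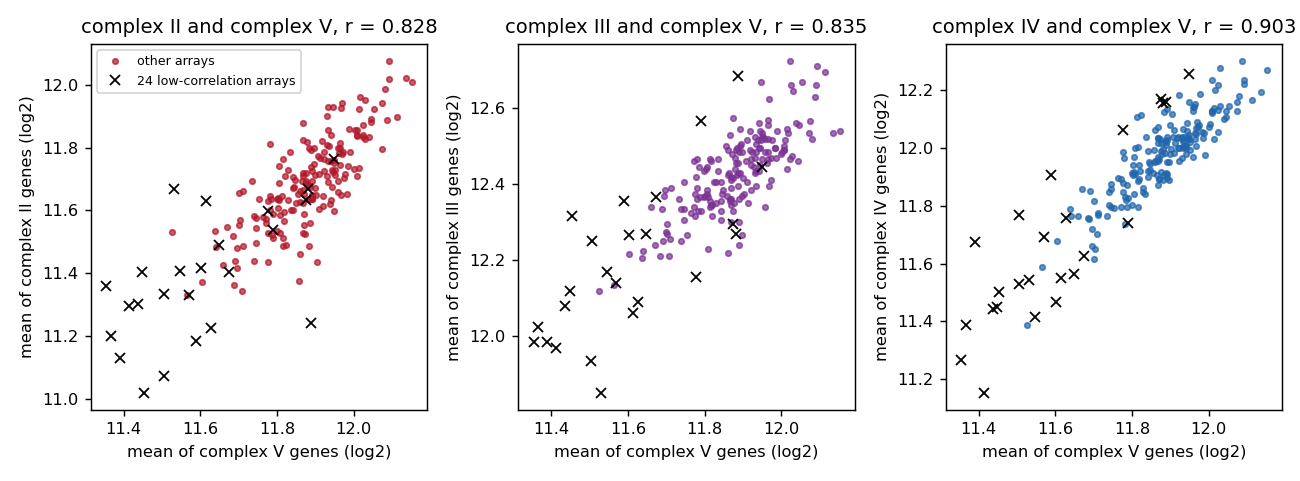
Mean log2 value of the genes of complexes II, III and IV (vertical axes) against that of complex V (horizontal axes), with 1 point per pig (n = 207) and crosses for the 24 low-correlation arrays. The 3 relations have r of 0.828, 0.835 and 0.903, and the crosses extend the same trends to lower values.

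Isoforms of a subunit were compared in 4 pairs with both traits, 8 relations in all. COX7A1 and COX7A2 had an r of 0.681 with each other, and their log2 difference had a slope of -0.0010 ± 0.0163 (SE, n = 207) per SD of drip loss, with p = 0.950 by a permutation test. The 95% interval of this difference was -0.0331 to 0.0310. The genes ATP5G1, ATP5G2 and ATP5G3 encode the same mature subunit c with different import sequences. ATP5G1 and ATP5G3 had an r of 0.849, while ATP5G2 had 0.383 with ATP5G1 and 0.267 with ATP5G3.

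ATP5G1 minus ATP5G2 had a drip loss slope of 0.030 ± 0.0134 (permutation p = 0.0245, adjusted over the 8 relations 0.138). ATP5G2 minus ATP5G3 had -0.0345 ± 0.0161 (permutation p = 0.0344, adjusted 0.138). ATP5G1 minus ATP5G3 had -0.0045 ± 0.0084, with a 95% interval of -0.0212 to 0.0121 (permutation p = 0.596). The first and second of these fail the correction, and without the low-correlation arrays their r with drip loss was 0.0409 and -0.0258. Of the 8 relations 0 passed by the two-sided permutation test, 2 at an unadjusted p under 0.05.

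Among the 6738 genes outside the 27, those whose pattern was most like the mean of complexes II to V were LOC100524873 (r = 0.935 over 207 pigs), a placeholder symbol, NDUFB2, a complex I subunit (0.928), and ATPIF1, the inhibitor protein of ATP synthase (0.922). For complex II they were LOC100525869 (0.842), also a placeholder, MDH1, cytosolic malate dehydrogenase (0.810), and COQ9, needed to make ubiquinone (0.791). For complex III they were USMG5, a small membrane protein of ATP synthase (0.779), LOC100524873 (0.772) and ATPIF1 (0.771). The same LOC100524873, NDUFB2 and ATPIF1 led for complex IV (0.911, 0.903 and 0.918) and for complex V (0.926, 0.921 and 0.911). Of the 50 genes most like the mean of complexes II to V, 13 were complex I subunits, which number 33 among the 6738. NDUFA4, named for complex I but since described as part of complex IV, had an r of 0.632 with the complex I mean, which includes it. With the means of complexes II, III, IV and V, which leave it out, r was 0.620, 0.670, 0.550 and 0.630.

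Other genes of the system were followed in lists. Of 14 measured assembly factors and electron carriers 13 had a positive drip loss slope and 1 passed, ATPIF1, with 0.0577 ± 0.0152 (SE, n = 207, adjusted p = 0.0135 in limma). Its adjusted p in limma was 0.242 with the title number blocks and 0.156 without the low-correlation arrays, where its slope was 0.0326. Of 8 genes for the export of ATP 5 slopes were positive and 1 passed, SLC25A4, the ADP/ATP carrier of muscle, with 0.0390 ± 0.0123 (adjusted p = 0.0436 in limma). SLC25A4 too lost its call, with 0.0248 under the blocks (adjusted p = 0.385 in limma) and 0.0231 without those arrays (adjusted p = 0.334). Of 9 regulators of mitochondrial genes 0 passed in limma, 4 at an unadjusted p under 0.05. Among them PPARGC1A, a coactivator of mitochondrial biogenesis, had a slope of -0.267 ± 0.0870 (adjusted p = 0.051 in limma), opposite in sign to the 27 genes. Its r with the mean of the 27 genes was -0.152, and -0.0482 without the low-correlation arrays. The PPARGC1A slope was -0.232 without those arrays (adjusted p = 0.198 in limma) and -0.216 with the blocks (adjusted p = 0.251 in limma). Mitochondria-encoded subunits were searched for by symbol, but none was found among the genes with a symbol of their own.

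Markers of fibre types and other cells were set beside the mean of the 27 genes. The mean of 9 slow fibre markers had an r of 0.592 with it (0.477 without the low-correlation arrays), and 0 of the 9 passed for drip loss in limma, 0 at an unadjusted p under 0.05. That of 4 fast fibre markers had an r of 0.0037. Singly they had -0.0876 (MYH2), -0.0508 (ATP2A1), 0.0393 (TNNT3) and 0.285 (TNNI2). For 5 fibroblast markers r was 0.364 (0.214 without those arrays) and for 2 satellite cell markers -0.396 (-0.279 without them). The fibroblast markers had a median drip loss slope of 0.0577 with 0 of 5 passing in limma, 2 at an unadjusted p under 0.05, and the satellite cell markers one of -0.0508 with 0 of 2 passing, 1 unadjusted. Of 9 endothelial markers 1 passed as lower, ENG, with -0.0680 ± 0.0218 (adjusted p = 0.047 in limma), and lost its call without the low-correlation arrays (0.139) and with the blocks (0.203). The mean slow fibre level was 12.26 ± 0.18 (SD, n = 24) on the low-correlation arrays and 12.42 ± 0.12 (SD) on the others, and its r with drip loss was 0.0841. The part of fibre type and cell makeup in the drip loss slopes of the 27 genes was not tested.

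For 7 of the 27 genes the array carries further probe sets, 8 in all, each dimmer than the one used. The second SDHA probe set ran from 5.28 through a median of 8.74 to 10.42 and had an r of 0.196 with the first, with a drip loss slope of 0.119 ± 0.0499 (adjusted p = 0.153 in limma). Its spread over pigs was wide, with an SD of 0.73 and quartiles of 8.41 and 9.52, and whether its values form separate groups was not tested. The second SDHB probe set had an r of -0.0731 with the first and a slope of -0.0570 ± 0.0270, and the second COX7C probe set an r of -0.0915 and a slope of -0.0030. The second ATP5S probe set followed the first most closely, at 0.654. A gene's probe sets were also averaged, with p adjusted over 6765 genes instead of all probe sets. In that fit 9 of the 27 genes passed, beside 349 of 6765 as higher. SDHB had a slope of -0.0067, COX7C 0.0241 (adjusted p = 0.192 in limma) and ATP5L 0.0368 (adjusted p = 0.086 in limma). These 3 lost their calls, and genes outside the 9 of the main fit gained one. ATP5I kept its own with 0.0647 (adjusted p = 0.0010 in limma).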

How the data were processed

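Muscle RNA of 207 pigs was extracted, labelled and hybridised to Affymetrix Porcine Genome Arrays, 1 per pig, with GCOS 1.1.1 and PLIER named in the submitters' processing notes. The deposited table holds log2 values (the lower limit of 4 and the range to 15.32 fit that scale, which no label states), and it gives no counts, so precision rests on the number of arrays. Of 24123 rows 188 controls were left out. Of the 23935 probe sets, 10069 carry 1 symbol, 198 several and 13668 none in the platform annotation, and all 27 genes matched RefSeq by gene number.

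Each trait was scaled to SD 1 and fitted with limma 3.58.1 in R 4.3.3, with Benjamini-Hochberg adjustment over all probe sets. The fit was tested on simulated data. Low-correlation arrays lie over 3 scaled MAD below the median. Blocks are runs of 100 title numbers (10 blocks), which may or may not follow a batch, and the title numbers form a lower series and a higher series of 33 pigs. Isoform differences were tested with 100000 permutations. Complex I was taken as symbols starting with NDUFA, NDUFB, NDUFC, NDUFS or NDUFV, without the assembly factors (NDUFAF).

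Named in full were the genes that passed, the genes with the smallest p per complex and trait and the largest p for drip loss, the isoform pairs, and the 3 genes most like each complex. The genes, lists and tests were chosen with earlier results of these data known. No separate origin of the pigs is labelled, so relatives among them may make p-values too small.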

Additional observations from a re-analysis of the deposited data

How the results depend on the processing

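The count of genes that passed for drip loss, 9 over all pigs, was 5 with the title number series as a covariate, 1 with the title number blocks, 1 in the lower number series, 1 without the low-correlation arrays and 4 with the 3' to 5' signal difference as a covariate. The count in limma was 0 in the higher number series (33 pigs, 5 at an unadjusted p under 0.05), where 0 of 23935 probe sets passed. It was 0 with 5 principal components of expression (3 unadjusted), where 3 of all probe sets passed as higher. Without the low-correlation arrays and with the blocks it was 0 (2 unadjusted), beside 22 of all probe sets. An unadjusted p under 0.05 in either direction was held by 1789, 1822 and 2540 of all probe sets in these settings. With 0 and 3 probe sets passing, the first and second settings left little room for a call among the 27 genes. Without the 27 arrays with albumin at 10 or more, chosen after seeing the data, 12 genes passed, beside 487 probe sets as higher. ATP5I passed in 16 of 19 alternatives (adjusted p from 4.3e-04 to 0.679), COX7A2 and ATP5H in 13, COX6C and ATP5L in 12, SDHD in 10, SDHB and COX7A1 in 7 and COX7C in 6. The trait difference passed for 2 genes after quantile normalization, beside 38 of all probe sets in the positive direction. With the blocks it passed for 0 genes in limma (3 at an unadjusted p under 0.05), beside 8 of all probe sets in that direction. The drip loss slopes of complex means without the low-correlation arrays were 0.023 (II), 0.027 (IV), 0.020 (V) and 0.022 (II to V), and with the blocks 0.034 (II), 0.030 (IV), 0.026 (V) and 0.028 (II to V). Complex III had 0.016 and 0.019.

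Slopes that changed sign for drip loss were SDHB with the mean of all probe sets (-0.0067), with 5 principal components COX6A1 (-0.0093), ATP5A1 (-0.0048), ATP5B (-0.0049), ATP5D (-0.0063) and ATP5G2 (-0.0043), without the low-correlation arrays ATP5A1 (-0.0070), with the blocks as well COX6A1 (-0.0018), ATP5A1 (-0.0096), ATP5B (-0.0028) and ATP5D (-0.0054), and in the higher series ATP5G2 (-0.00078). Fat area slopes were followed one by one for 4 genes, SDHD, UQCR10, COX5B and ATP5I, and those that changed sign were SDHD (-0.00022) and UQCR10 (-0.0017) with the Y-linked component as a covariate, UQCR10 without the 2 farthest pigs (-0.00091), without the low-correlation arrays (-0.0031), with the blocks as well (-0.00026) and without the albumin arrays (-0.0019), and in the higher series COX5B (0.010) and ATP5I (0.013). The cause was not tested. Of the other single-gene alternatives for drip loss 408 kept direction and side of the threshold, 74 lost the call and 19 gained it, and for the fat area slopes of those 4 genes 68 kept both. Over all 27 genes the number of positive fat area slopes, 18, ranged from 8 to 20. No paired analysis was possible because the pigs form 1 group with no shared replicate numbers.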
